A study of Drosophila melanogaster with 4 samples.

Results

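Chromosome arm 3R, the right arm of chromosome 3 of Drosophila melanogaster, carried 1578 regions enriched for histone H4 monomethylated at lysine 20 (H4K20me1), 23.04% of the 6850 enriched regions listed for the whole genome. Members were all enriched regions that the list of the replicate set, called the combined list here, places on 3R, and none was left out. Wild-type Oregon-R embryos aged 14 to 16 h were used for chromatin immunoprecipitation with sequencing. The series comprised 2 ChIP replicates and 2 inputs, and all 4 samples shared that strain, genotype and stage, so there was no contrast of conditions. All 4 sample titles also read 4th lot, and they do not say what the lot is of. Each member was checked against the 3R rows of the 2 replicate lists, which held 1402 and 1401 regions. Whole embryos mix many cell types, so a mark carried by few cells and a weak mark carried by all cannot be told apart.

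In flies H4K20me1 is placed by the methyltransferase PR-Set7, which is needed for normal progress through the cell cycle and for keeping chromosomes intact. Suv4-20 enzymes turn the monomethyl mark into the di- and trimethyl forms, and proteins with MBT domains can bind the lower methylation states. Late embryos of this age are building differentiated tissues, and many of their cells have stopped dividing. On the reference sequence of 3R the low coordinates lie at the centromere end and the high ones at the telomere end. Positions below are on FlyBase release 5, and regions are described by position without the genes they hold, because no annotation of that release was used here.

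The members covered 9.25 Mb, or 33.2% of the 27.9 Mb of 3R. Replicate 1 covered 28.5% of the arm and replicate 2 covered 29.1%, a mean of 28.8% ± 0.418 (SD, n = 2). The combined list thus reached further than either replicate, by more than the spread between them. The replicates shared 7.44 Mb of the 8.64 Mb found in either, a Jaccard index of 86.1%, and 100.0% of the shared bases lay inside members. Of the bases of the members, 80.5% were marked in both replicates, and 0.668 Mb was marked in neither. Since the labels leave unsaid whether separate collections of embryos were used, this spread may be a technical one.

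Most members were narrow, and a small number of wide ones held much of the marked sequence. The median width was 3068.5 bp, with the middle 50% of members between 1806 and 6103 bp and extremes of 1001 and 118144 bp. Medians in the replicates were 3164 and 3215 bp. Members under 2 kb made up 29.3% of the list and held 7.30% of its bases, while the 83 members of 20 kb or more, 5.26% of the list, held 30.6%. The 211 widest members together held 50% of the marked bases, and in the replicates 214 and 209 regions did so. The combined list had more regions at both ends of the range: its 83 of 20 kb or more compare with 66 and 67 in the replicates, and its 463 under 2 kb with 338 (24.1%) and 318 (22.7%).

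The authors gave every region 1 score, taken here as a log2 ratio (a score of 1 is then a 2-fold ratio), and the sources used here do not say what is divided by what. The median score of the members was 0.55, a 1.47-fold ratio, and the range was 0.04 to 2.85. Replicate medians were higher, at 0.78 and 0.77, but the combined list also held weak regions that the replicate lists did not. Wider members scored higher: the median was 0.33 below 2 kb, 0.57 from 2 to 5 kb, 1.03 from 5 to 10 kb, 1.21 from 10 to 20 kb and 1.42 above that. Over the 1578 members, score and width had a Spearman correlation of 0.82, which describes regions of the same libraries.

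That relation between width and score was not uniform. Among the 463 members under 2 kb, score and width had a Spearman correlation of -0.24, against 0.67 for the 1115 members of 2 kb or more. Only 2 of the 463 narrow members scored 0.6 or more, whereas 742 of the wider ones did. In the replicate lists the correlation below 2 kb was weak and positive, at 0.26 over 338 regions and 0.20 over 318. The ranges of width differed, however, as replicate regions went down only to 1302 and 1301 bp and members to 1001 bp. The 130 members of 1 to 1.25 kb, a width that the replicates lack, had a median score of 0.38. Medians of the members were 0.30 from 1.25 to 1.5 kb, 0.29 from 1.5 to 1.75 kb and 0.35 from 1.75 to 2 kb. The bounds of 2 kb and 0.6 were chosen after the values were seen, and the difference between lists was not tested.

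**Figure D1:**
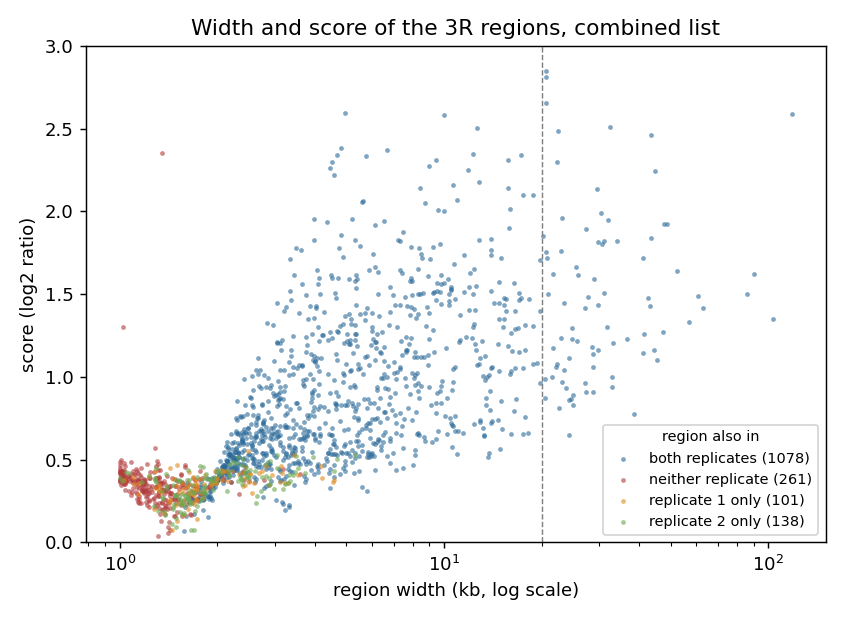
Score (log2 ratio, vertical axis) against width (kb, log scale) for the 1578 members, 1 point each, coloured by the replicate lists that also hold the region; the dashed line marks 20 kb. Members found in neither replicate sit at the narrow end, mostly below a score of 0.5, apart from 2 narrow members at 2.35 and 1.30.

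Most members were also found in the replicates taken singly. Regions of both replicates touched 1078 members (68.3%), which held 90.9% of the marked bases and had a median width of 4604.5 bp and a median score of 0.80. Another 101 members touched a region of replicate 1 only, 138 touched replicate 2 only and 261 touched neither. These 500 were narrow and weak, with median scores of 0.36, 0.37 and 0.35 and median widths of 1731, 1780 and 1294 bp in that order. Of the 500, 323 (64.6%) lay within 5 kb of a member that both replicates held. Close neighbours were common on the arm, where only 212 of all 1578 members (13.4%) had no other member within 5 kb. The same share was not computed for the other members, so no closeness particular to the 500 is shown.

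The presence of a member in both replicates changed steeply with score. Below a score of 0.25, 15.4% of 91 members were in both, and from 0.25 to 0.5 the share was 32.3% of 607. From 0.5 to 0.75 it was 96.7% of 303, and from 0.75 to 1 it was 100% of 169. It changed as steeply with width, from 13.6% below 2 kb to 83.98% at 2 to 5 kb and 99.6% at 5 to 10 kb, and all 219 wider members were in both. Score and width rise together, and their separate parts in this were not tested. With 1 shared base as the rule, a wide member touches replicate regions more easily than a narrow one, wherever it lies. The combined list also rests on the same libraries as the replicate lists, so these shares describe the lists and are no test. The depth behind each region is unknown, for want of read counts.

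Width limits differed between the lists. The narrowest region of replicate 1 on 3R was 1302 bp and that of replicate 2 was 1301 bp, whereas members went down to 1001 bp. A total of 156 members were narrower than any replicate region. None of these touched regions of both replicates, and 135 touched neither, which is 51.7% of the 261 members found in neither.

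Among members outside both replicates, 2 narrow regions had high scores. The region from 17127077 to 17128430, 1354 bp wide, scored 2.35, a 5.10-fold ratio, yet no region of replicate 1 or 2 touched it. Its neighbour, 925 bp away on the centromere side, scored 1.60. The region from 27714397 to 27715417, 1021 bp wide, scored 1.30 and lay 455 bp from a neighbour that scored 0.81. Both were singled out after their values were seen. The next strongest member outside both replicates scored only 0.57.

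Edges and scores of matched regions were close. In 850 cases a member corresponded to exactly 1 region in each replicate and to no shared one. Start and end positions of those regions differed between replicates by 108.5 bp at the median, and 88.8% of edges lay within 500 bp of each other. Across these regions, which share the same libraries, Pearson's correlation of the scores was 0.96 and Spearman's was 0.93. Scores differed by 0.09 at the median, 90% of differences were at most 0.23, and the largest was 0.46. Left out were 99 members split into several regions in both replicates and 127 split in 1 of them. Replicates could differ more there, as at the member from 9791516 to 9843675, with 1.93 and 0.97. Replicate 1 had the higher score in 458 of the 850, so neither replicate stood above the other throughout.

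The largest of these differences came with a difference in extent. At the member from 18829750 to 18836101, replicate 1 held a region of 1631 bp with a score of 0.48, and replicate 2 held one of 10475 bp with a score of 0.95. In general the combined region was the wider one, exceeding both replicate regions in 702 of the 850 cases, and its score was below both in 456.

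**Figure D2:**
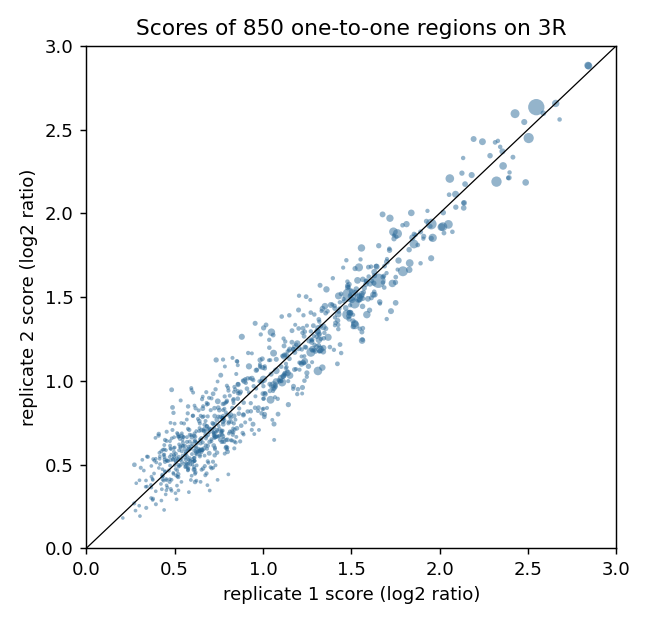
Scores (log2 ratio) of the 850 one-to-one regions on 3R in replicate 1 (horizontal) and replicate 2 (vertical), with point area growing with width and the line marking equality. Points follow the line over the whole range, with a Pearson correlation of 0.96.

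Nearly every replicate region on 3R had a counterpart. In the combined list, 1400 of 1402 regions of replicate 1 and 1395 of 1401 of replicate 2 were touched by members. In the other replicate, 1289 (91.9%) and 1255 (89.6%) had a counterpart, including all 66 and all 67 regions of 20 kb or more. The 113 regions seen in replicate 1 alone had a median score of 0.51 and a maximum of 0.75, and the 146 seen in replicate 2 alone had 0.52 and 0.81. No region of 3R with a score of 1 or more was thus confined to 1 replicate's list.

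H4K20me1 regions lay along the whole of 3R at uneven density, and neither score nor width rose or declined steadily from centromere to telomere. In the 27 full windows of 1 Mb, the members covered between 15.7% and 53.8% of bases, with a median of 31.9%, and 24 windows lay between 25% and 45%. Numbers of members per window ran from 32 to 89. Score had a Spearman correlation with position of -0.01 in the combined list, -0.03 in replicate 1 and -0.04 in replicate 2, and width one of 0.01, 0.00 and -0.01. Windows gave the same picture in both replicates, whose coverage differed by 1.20 percentage points at the median and 2.93 at most, far less than windows differed from each other.

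The densest full window was the sixth from the centromere, from 5000001 to 6000000, where members covered 53.8% and the replicates 48.3% ± 1.13 (SD, n = 2). It held 77 members, of which 6 were of 20 kb or more. Second among the full windows came the one from 19000001 to 20000000, with 44.9% in the combined list and 38.2% ± 0.776 (SD, n = 2) in the replicates. The window from 10000001 to 11000000 followed, with 42.7% and 39.0% ± 0.697 (SD, n = 2). Both of the latter were built differently: the former held 89 members, the most of any full window, with a median width of 2659 bp, and the latter only 45, with a median of 4077 bp and 5 members of 20 kb or more. In both replicates the latter was covered more than the former.

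Poorest in the mark was the window from 3000001 to 4000000, with 15.7% of bases in members and 12.8% ± 0.107 (SD, n = 2) in the replicates. The window from 8000001 to 9000000 was close to it, with 16.1% and 13.2% ± 0.122 (SD, n = 2). These 2 windows stood apart from the rest, since the next poorest, from 26000001 to 27000000, had 26.4% and 21.1% ± 0.113 (SD, n = 2). That window adjoined the well marked telomere end, where the last 905053 bp of the arm were covered over 47.1% by members and over 41.7% and 39.1% in the replicates, with 7 members of 20 kb or more.

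**Figure D3:**
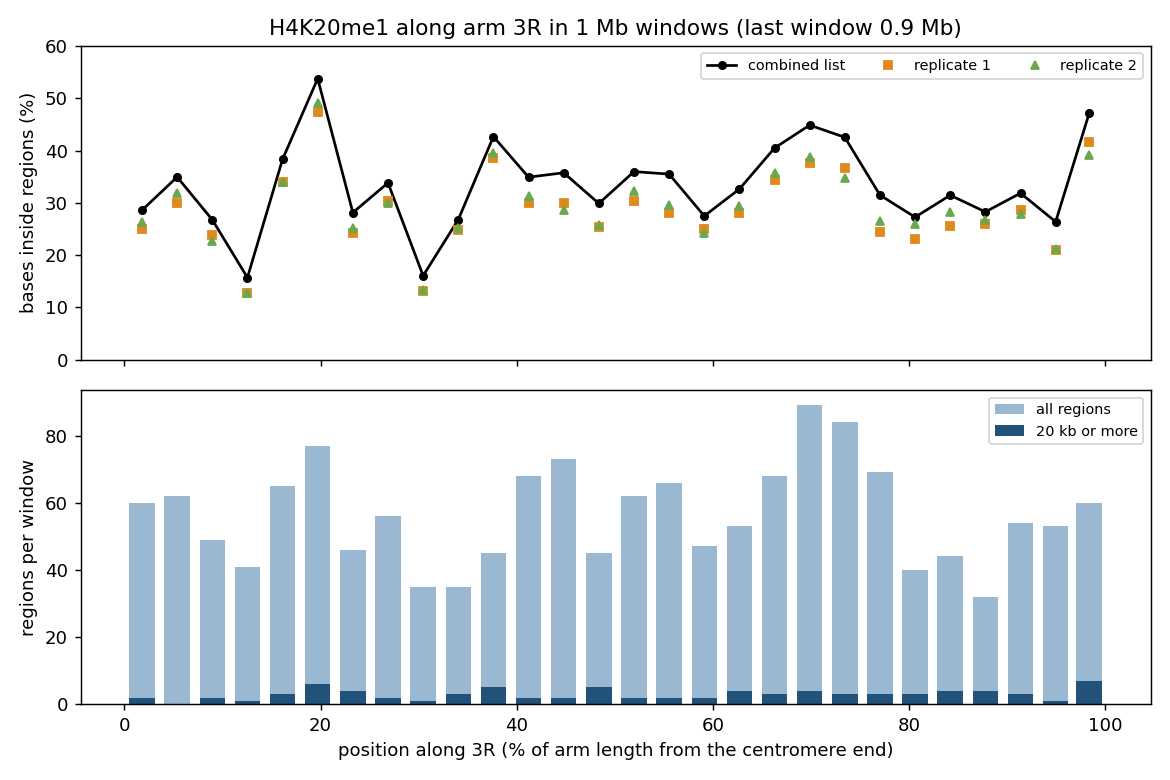
Upper panel: share of bases inside regions (%) in 1 Mb windows along 3R, for the combined list and each replicate. Lower panel: number of members that start in each window, all and those of 20 kb or more. The horizontal axis gives position as a percentage of arm length from the centromere end. Coverage by the members peaks at 53.8% in the sixth window and is lowest, at 15.7% and 16.1%, in the fourth and the ninth.

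In 4 equal stretches of the arm, coverage by the members was 32.4%, 31.4%, 37.2% and 31.6% from centromere to telomere. Replicate 1 gave 28.3%, 27.4%, 31.5% and 26.9%, and replicate 2 gave 28.9%, 27.6%, 32.2% and 27.7%. The third stretch, from 13952527 to 20928789, was thus the most marked in all 3 lists. It also had the most members, 469 against 354 to 398 in the others, but the narrowest, with a median of 2673 bp, and the lowest median score, 0.50 against 0.58 to 0.61. The third stretch was lowest in the replicates too, where it had median scores of 0.72 and 0.72 and the others 0.76 to 0.82. Members with a score of 2 or more were most numerous at the centromere end, with 15 in the first stretch and 8, 8 and 9 in the others. The replicates had 23 and 18 such regions in the first stretch and 8 to 11 in each of the others. No test was made of these differences, as stretches of 1 genome are not replicates.

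Windows with many members tended to be covered more, with a Spearman correlation of 0.75 between count and coverage over the 27 full windows, but coverage and median score had one of only -0.07. Count and median score had one of -0.32. The 2 highest median scores were in sparsely occupied windows. They were 0.91 among 32 members from 24000001 to 25000000 and 0.87 among 35 from 9000001 to 10000000. Other sparse windows were lower, such as the one from 8000001 to 9000000 with 0.54 among 35 members. The lowest median score of all, 0.45 among 66 members, was from 15000001 to 16000000, where the replicates gave 0.62 and 0.58.

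**Figure D4:**
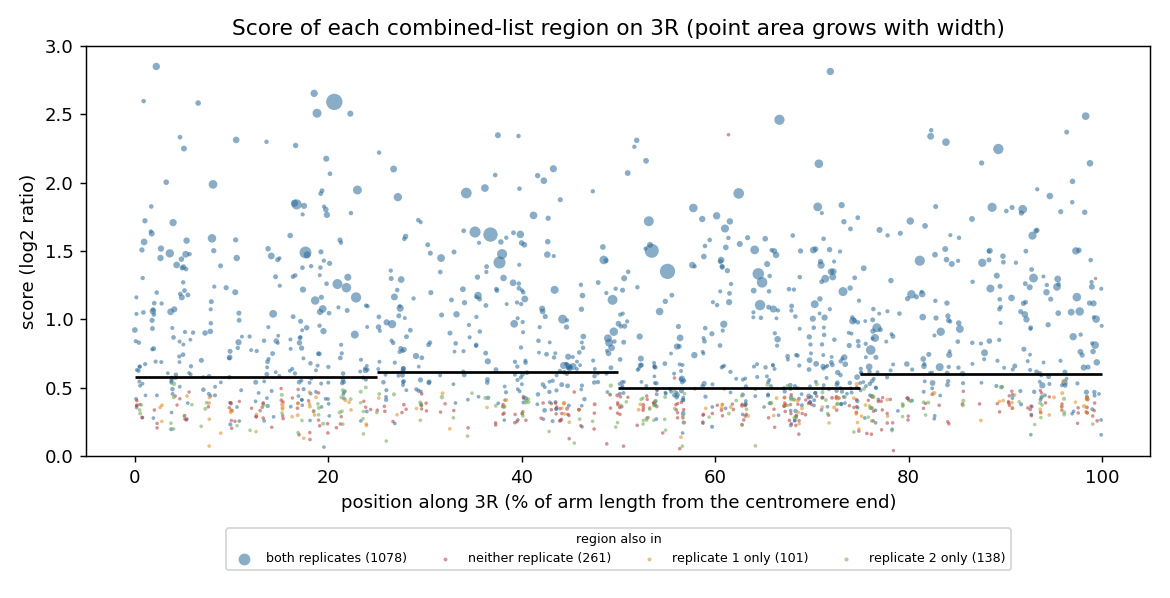
Score (log2 ratio) of each of the 1578 members against its position, as a percentage of arm length from the centromere end, coloured by the replicate lists that also hold it, with point area growing with width. Black bars are the median scores of 4 equal stretches, 0.58, 0.61, 0.50 and 0.60, and high scores occur along the whole arm.

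On a finer scale most stretches were marked in part. Of 279 full windows of 100 kb, 184 were covered between 10% and 60% by members, 53 under 10% and 42 at 60% or more. The median was 29.96%, and 22 windows held no base of a member. Empty windows numbered 30 and 26 in the replicates, and 26 were empty in both. Windows of 60% or more numbered 29 and 32, and 26 reached it in both. The window from 5700001 to 5800000 was covered 100% in all 3 lists. Coverage of neighbouring 100 kb windows had a Spearman correlation of 0.22, and at a distance of 200 kb it was 0.04. In the replicates the values were 0.22 and 0.24 for neighbours and 0.02 and 0.03 at 200 kb, so coverage of a window told little of coverage 200 kb away.

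At the centromere end, the arm sequence of 3R was marked from its first bases. Those bases are the edge of the assembled arm, not the centromere itself. Release 5 keeps 2.52 Mb of 3R heterochromatin apart as the sequence 3RHet, of which 0.320% lay inside regions of the combined list. How well reads map to 3RHet was not examined, so this share may not be comparable with that of the arm. The first member ran from 4 to 10611, with a score of 0.92. Replicate 2 had a single region there with a score of 1.01, and replicate 1 had 2. The next 4 members, from 28937 to 32453, from 38880 to 41316, from 46542 to 49689 and from 49813 to 53014, scored 0.84, 0.42, 1.16 and 1.04. All 5 were found in both replicates, with scores of 0.54 to 1.28 in replicate 1 and 0.54 to 1.12 in replicate 2. Of these 5, 4 scored above the median of the arm's members, the exception being the member of score 0.42.

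In the proximal 2 Mb, members covered 31.8% of bases, and 33.3% elsewhere on 3R. The replicates averaged 28.3% ± 1.14 (SD, n = 2) in the proximal 2 Mb and 28.9% ± 0.362 (SD, n = 2) in the rest, a difference smaller than the spread between them. The 122 members of that end, 61.0 per Mb against 56.2 per Mb in the rest, had a median width of 3445.5 bp and a median score of 0.68, against 3037.5 bp and 0.54 elsewhere. Median scores in the replicates were 0.80 and 0.89 there and 0.77 and 0.76 elsewhere. In replicate 1 this difference was smaller than the one between the replicates at the centromere end. Nor was the score even within that end. In steps of 200 kb the median of the members ran from 0.53 in the first, with 20 members, to 1.48 in the fifth, with 3. Both replicates held 93 (76.2%) of the proximal members and 67.7% of the others. Wide members were few: 2 of the 83 members of 20 kb or more lay in the proximal 2 Mb.

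Marking within that end was patchy. In steps of 200 kb from the first base of the arm sequence, members covered 29.1%, 29.8%, 40.0%, 37.3%, 6.79%, 65.2%, 40.1%, 49.0%, 7.29% and 13.2% of bases. The fifth and ninth steps were poor in both replicates too, with 6.42% ± 0.0689 and 6.24% ± 1.24 (SD, n = 2), and the sixth was rich in both, with 55.9% ± 5.49 (SD, n = 2). The richest step thus lay next to a poor one. Of the 10 members with the highest scores on the arm, 3 lay in this end, including the highest of all.

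The other arm of the same chromosome, 3L, was marked over 3.11% of its proximal 2 Mb in the combined list, and over 2.30% and 2.26% in the replicates, where 3R had 31.8%, 27.5% and 29.1%. Outside the proximal 2 Mb the coverage of the arms was close, at 33.2% of 3L and 33.3% of 3R in the combined list, 29.04% and 28.6% in replicate 1 and 29.2% and 29.1% in replicate 2. Each arm has a single centromere end, so the difference has no test. How far each arm sequence reaches into heterochromatin, and how well reads map there, was not examined, so the 2 stretches may not be alike. The sequence 3RHet, heterochromatin of 3R that is kept apart from the arm in release 5, held 3 regions in each list at matching places, which covered 0.320% of its 2.52 Mb in the combined list and 0.280% and 0.323% in the replicates. They scored 0.53 to 0.80 in the combined list, within the range of the members. Scores were 0.45 to 0.70 in replicate 1 and 0.63 to 1.01 in replicate 2, which was the higher at each of the 3.

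At the telomere end the last member ran from 27891388 to 27894312 with a score of 0.95, and the final 10741 bp of the arm held none. The preceding members, from 27814652 to 27816730, from 27874213 to 27876099, from 27876231 to 27878100 and from 27878153 to 27881309, scored 0.45, 0.26, 0.16 and 1.22. All 5 were in both replicates. The member of score 0.16 was 1 of only 14 members below 0.25 that both replicates held. The distal 2 Mb as a whole was covered over 37.0% by members and over 31.2% ± 0.647 (SD, n = 2) in the replicates.

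Spacing was strongly uneven. The median gap between neighbouring members was 2144 bp, the lower quartile 585 bp and the upper 9009 bp, while 104 gaps exceeded 50 kb and 36 exceeded 100 kb. Gaps over 50 kb made up 36.2% of the length of the arm, and 43.0% and 41.5% in the replicates. Median gaps in the replicates were 2629 and 2817.5 bp.

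Members thus came in clusters, defined here as 3 or more members with gaps of at most 5 kb. There were 218 clusters with 1148 members (72.8%), which spanned 28.6% of the arm, with a median span of 27.6 kb. The replicates had 194 and 193 clusters, with 67.5% and 67.4% of their regions. A further 109 pairs and 212 isolated members made up the rest. Members of clusters of 6 or more had a lower median score than isolated ones, 0.51 against 0.68, at a similar median width of 2918 against 3028.5 bp. Shares found in both replicates were close, at 67.2% and 66.0%.

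The largest clusters had 22 members each. One ran from 19777410 to 19938035, spanned 160.6 kb and was the longest of all, with 79.8% of it inside members and a median score of 0.70. Replicate 1 held 21 regions over 71.8% of it and replicate 2 held 22 over 73.3%. The other, from 21177944 to 21319340, spanned 141.4 kb with a lower median score of 0.44, and here the replicates differed more, with 58.9% and 72.8% of the span covered by 22 regions each. Next by number was the cluster of 18 from 15756003 to 15836389, with a median score of 0.40 and no member above 0.67. Members held 81.9% of its span, but replicate regions only 51.0% and 55.7%. Of the longest clusters, the one from 14804867 to 14957819, 153.0 kb, had only 6 members, and 94.0% of it lay inside them, with 91.8% and 91.5% in the replicates.

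Some members all but touched. Of 1577 gaps, 101 were under 100 bp and 559 under 1 kb. Members on the sides of a gap under 100 bp differed in score by 0.30 at the median, and in 23 of the 101 pairs by 0.5 or more. The median difference was 0.25 for neighbours 100 bp to 1 kb apart and 0.28 for those 1 to 5 kb apart. It was 0.31 at 5 to 50 kb and 0.48 at over 50 kb. The higher score of a pair had a median of 1.15 at over 50 kb, against 0.72 under 100 bp. Spearman correlations of neighbouring scores, from the closest class to the farthest, were 0.22, 0.28, 0.22, 0.14 and 0.20. Similarity of scores thus showed no steady change with distance. The largest step across a gap under 100 bp was at 5275519. A member of 32.4 kb with a score of 2.51 was followed there 96 bp later by one of 2946 bp with 0.66. A single region spanned both sides in 12 of the 101 cases in replicate 1 and 9 in replicate 2. Separate regions lay on the sides in 50 and 57 cases, and at least 1 side had no region in the remaining 39 and 35. Separate regions on the 2 sides were thus found in the replicates in only part of the cases. Whether they were divided at the same place was not checked. The number of members depends on such divisions.

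The longest stretches without a member were in the interior of the arm. No member lay from 8546070 to 8808706 (263 kb), from 23904051 to 24144818 (241 kb), from 12975488 to 13207457 (232 kb), from 3095356 to 3311967 (217 kb) or from 15861623 to 16077732 (216 kb). Replicate regions reached into these stretches by at most 9 bp in replicate 1 and at most 177 bp in replicate 2, so all 5 were empty in each list apart from edges. The first and the fourth of them lie in the poorest windows of the arm.

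The 83 wide members, of 20 kb or more, were all found in both replicates. They covered 2.83 Mb, with a median score of 1.42 and a range of 0.65 to 2.85. At least 63.7% of each was covered in replicate 1 and 71.7% in replicate 2. Only 38 of them were a single region in each replicate, 24 were split into several in both and 21 in 1 replicate. The longest interval between wide members ran from 2274077 to 3981221 (1707 kb), across the poorest window, and 10 pairs of neighbouring wide members were within 5 kb of each other.

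The 10 widest members had scores of 1.33 to 2.59 and together held 7.85% of all marked bases. The region from 5698729 to 5816872 (118.1 kb) was the widest, with a score of 2.59, and formed 1 undivided region in each replicate, at a score of 2.59 ± 0.06 (SD, n = 2). Those from 10217649 to 10307907 (90.3 kb, score 1.62) and from 14871641 to 14957819 (86.2 kb, score 1.5) were also single in both, at 1.63 ± 0.04 and 1.5 ± 0.02 (SD, n = 2). The fourth such region was the one from 9540559 to 9589380 (48.8 kb, score 1.92), at 1.94 ± 0.01 (SD, n = 2). Each replicate covered at least 96.3% of each of these 4, and their scores were close, although replicate 1 covered less than replicate 2 of the first (98.8% against 100%) and of the last (96.3% against 99.9%).

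The other 6 were divided in at least 1 replicate, although at least 96.2% of each was covered in either. They ran from 15317723 to 15420891 (103.2 kb, score 1.35), from 10491156 to 10553945 (62.8 kb, 1.42), from 4895957 to 4956472 (60.5 kb, 1.49), from 17958899 to 18015728 (56.8 kb, 1.33), from 9791516 to 9843675 (52.2 kb, 1.64) and from 17398082 to 17445661 (47.6 kb, 1.92). Within the 52.2 kb region, replicate 2 held pieces with scores of 2.51, 1.63 and 0.97 in order from the centromere side, and replicate 1 held 1.93, 0.61 and 1.03. The score of the member, 1.64, thus covers parts that differ by more than 1 on the log2 scale in both replicates. In replicate 1 this rests on the short middle piece, which ran only from 2.73 to 4.96 kb from the centre of the member. The 2 long pieces of replicate 1 scored 1.93 and 1.03. Within the 62.8 kb region replicate 1 had 4 pieces with scores from 0.31 to 1.77 and replicate 2 a single one with 1.45.

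**Figure D5:**
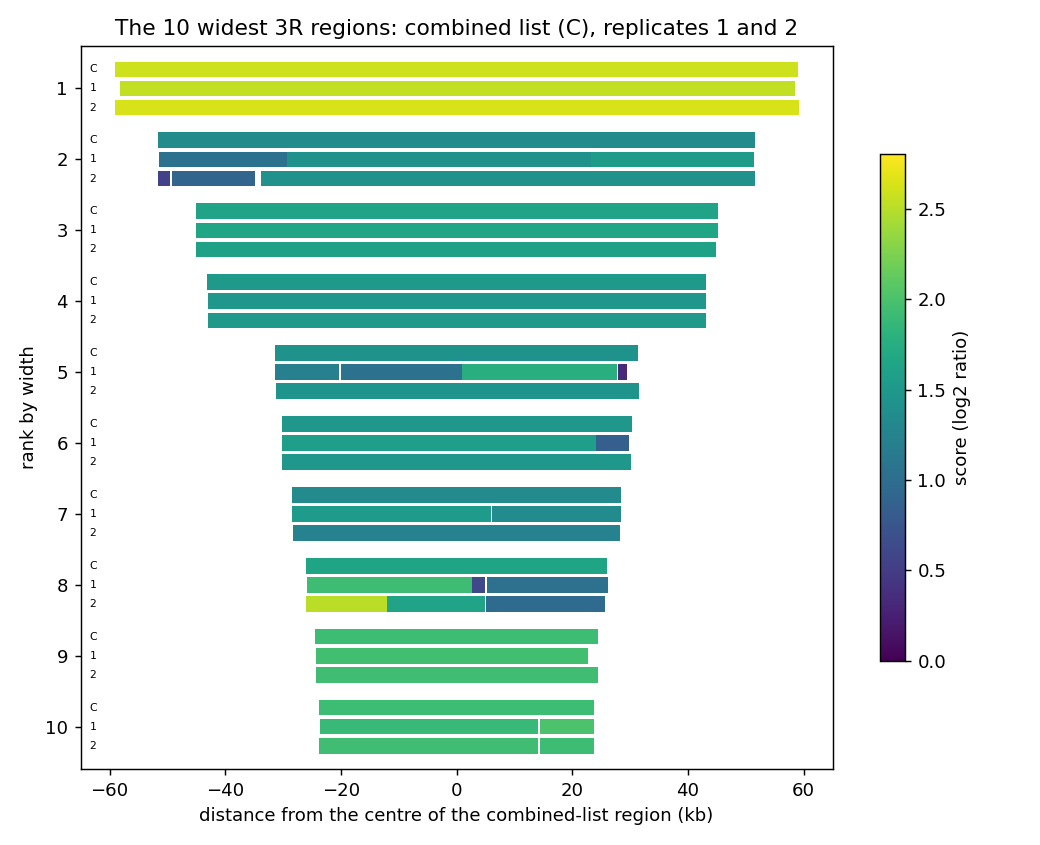
The 10 widest members, ranked from top to bottom, each shown as the combined region (C) and as the regions of replicates 1 and 2, by distance from the centre of the member (kb) and coloured by score (log2 ratio). Ranks 1, 3, 4 and 9 are single blocks in all 3 lists, and the others are divided in at least 1 replicate.

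Wide members also followed each other closely from 17958899 to 18120449. The region from 17958899 to 18015728 was separated by 4 bp from one of 45.4 kb that ended at 18061117 (score 1.10), and after 12074 bp came one of 47.3 kb from 18073192 to 18120449 (score 1.27). In the replicates at least 98.4% of each of these 3 was covered. Their division into 3 members leaves each of them outside the 5 widest, although together they hold more bases than any single member.

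The 10 members with the highest scores were shorter, and only the 118.1 kb region belonged to both sets. Highest was the one from 612383 to 632994 (20.6 kb) in the centromere end, with 2.85, a 7.21-fold ratio, and replicate scores of 2.84 and 2.88. Then came regions from 20054596 to 20075178 (20.6 kb, 2.81), from 5166807 to 5187361 (20.6 kb, 2.65) and from 255298 to 260248 (4.95 kb, 2.6). The widest member was the fifth, and the regions from 1824912 to 1834883 (9.97 kb, 2.58), from 5243122 to 5275519 (32.4 kb, 2.51), from 6213419 to 6226088 (12.7 kb, 2.50), from 27418588 to 27441097 (22.5 kb, 2.49) and from 18576514 to 18619896 (43.4 kb, 2.46) followed. All 10 were in both replicates, 9 as a single region in each, and no score differed between replicates by more than 0.17. Of the 10, 7 lay between the centromere end and 6226088, and 3 of these, with scores of 2.65, 2.51 and 2.59, were in the densest window.

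That densest window held strong and moderate wide members side by side. Besides the 3 just named it had members from 5192001 to 5220749 (28.7 kb, score 1.14), from 5412811 to 5435125 (22.3 kb, score 1.08) and from 5827548 to 5868957 (41.4 kb, score 1.26). The first of these began 4639 bp after the member of score 2.65. The last began 10675 bp after the widest member. Replicates put them at 1.15 and 1.27, 1.26 and 1.08, and 1.33 and 1.36, all well below their strong neighbours.

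High scores were not limited to wide members. Of the 40 members with a score of 2 or more, 17 were under 10 kb and 10 were of 20 kb or more, and their median width was 11389 bp. They held 7.19% of the marked bases and occurred in 21 of the 28 windows of 1 Mb. Both replicates held regions at 39 of them, the exception being the 1354 bp region described above.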

How the data were processed

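Chromatin from wild-type Oregon-R embryos was immunoprecipitated for H4K20me1 in 2 replicates, each with an input. Per the submitters' processing notes, Bowtie 0.12.7 was the aligner. The deposited lists hold regions of significant enrichment on FlyBase release 5, per the file headers, with 1 score per region; the sources used here name neither the caller nor its threshold, nor how replicates were combined. The deposited score was read as a log2 ratio from its values. On 3R, pairs of scores differed by the base-2 logarithm of 2/1, 3/2, 4/3 or 5/4, within 1e-09, in 15, 57 and 54 pairs of the combined, replicate 1 and replicate 2 lists, and by the natural or base-10 logarithms in 0. Scores are the authors' own values. Depth is unknown, as the files hold no read counts, and intervals resting on depth were left out.

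A region counted as found in a replicate when at least 1 base overlapped. Coverage is the share of bases inside regions. For a member divided in a replicate, the replicate score is that of the piece with the largest overlap. No test was made, since the series holds 1 group and regions are not replicates of it. Named positions were the 10 widest and 10 strongest members, the 5 nearest each end, the 5 longest gaps, the 3 largest and the 3 longest clusters and the 3 densest and 3 emptiest windows. Others were chosen after their values were seen. Members and rules were chosen with earlier results of these data known. Interval functions were tested on simulated regions. The gene table at hand describes Release 6, and coordinates were not converted. Python 3.11.15, numpy 2.4.6, pandas 2.3.3, scipy 1.17.1 and matplotlib 3.10.9 were used.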

Additional observations from a re-analysis of the deposited data

How the results depend on the processing

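With a single replicate list, the arm was covered over 28.5% to 29.1%, the proximal 2 Mb over 27.5% to 29.1% and the densest window over 47.5% to 49.1%; the median gap was 2629 to 2817.5 bp and the median score 0.77 to 0.78. A single replicate touched 74.7% to 77.1% of members. Numbers of regions and clusters stayed within 1.5 times the main values. Keeping members at or above the median score left 789 members over 26.96% of the arm and 26.9% of the proximal 2 Mb, 99.6% of them in both replicates, with 77 clusters, a median gap of 7754.5 bp and 46.1% in the densest window. By construction, merging members under 1 kb apart gave 1019 regions over 34.0% of the arm, 122 clusters and a median gap of 5693 bp. Requiring 50% of a member to be covered in each replicate lowered the share found in both to 65.7%. The proximal 1 Mb was covered over 28.6% and the proximal 4 Mb over 26.5%. The densest windows of 500 kb and 2 Mb reached 62.7% and 46.0%. Gaps of up to 2 kb or 10 kb gave 177 or 202 clusters. The 19 named wide and strong members gave 38 replicate scores, an alternative chosen after seeing the data. Of these, 24 lay within the replicate SD of the combined score and 14 beyond. That SD came from the same 2 replicate scores, so it was large where replicates disagreed and small where they were close. The 52.2 kb member counted as within at 0.97 against 1.64, and the 103.2 kb member as beyond at 1.40 against 1.35. The tally therefore cannot show how stable these scores were. The largest difference from a combined score was 0.67. No paired analysis was possible because the inputs entered without lists of their own. Depth is unknown, which limits what can be said of members of low score.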
